A study of Mus musculus with 40 samples.

Results

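Basement membranes are thin sheets of extracellular matrix under endothelia and epithelia and around muscle and fat cells. Collagen IV and laminins each form a network, and nidogen and the heparan sulphate proteoglycan perlecan join the networks to each other. Blood vessels are lined by such a sheet, and endothelial cells, from which the first blood cells emerge, make many of its proteins. The fragments described here came from the loci of 10 such genes: Col4a1 and Col4a2 (the collagen IV chains found in most basement membranes), Lamb1, Lamc1 and Lama4 (laminin chains), Nid1 (nidogen), Hspg2 (perlecan), Col18a1 (a collagen of vascular basement membranes whose end fragment is endostatin), Sparc (a secreted protein that binds collagens) and Fn1 (fibronectin, a cell-adhesive matrix protein). A fragment was a member when its centre lay in the RefSeq body of one of these genes or within 25 kb of it. The rule used position alone and no reporter value. It found 1193 entries in the 40 fragment lists of the screen, which held 458486 entries in all. Identical entries counted once, these were 931 of 354627 distinct fragments. Overlapping fragments were merged, which placed the members in 121 of 75060 regions.

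The screen asked which open-chromatin fragments drive a reporter at successive stages of blood formation. HM-1 mouse embryonic stem cells (strain 129/ola) carry a non-functional Hprt gene. Each construct held a Tn5-cut fragment before the Hsp68 minimal promoter and a Venus-YFP reporter, and its integration repaired Hprt, so that each cell carried a single fragment. Cells were taken as embryonic stem cells (ES), hemangioblasts (HB), hemogenic endothelium 1 (HE1), hemogenic endothelium 2 (HE2) or hematopoietic progenitors (HP). Per the methods of the study, these 5 stages were purified by FLK1 for HB and by KIT, TIE-2 and CD41 for the later stages. At each stage the cells were sorted into a Negative, a Low, a Medium and a High gate, with the Negative gate set on a line that carried the minimal promoter alone. No group was treated further, and all 20 groups (5 stages by 4 gates) had 2 replicates. A replicate was a transfected pool followed through the stages, and every fragment was read at Hprt, away from its native locus. A sort is 1 stage of 1 replicate, and there were 10 sorts. Positive fragments of a sort are those of its Low, Medium or High gate, each counted once, and negative fragments are those of its Negative gate. The lists hold coordinates and no expression values, so the stage of a library could not be checked against marker genes. Replicate 1 libraries held 4869 to 51146 fragments (median 15805) and replicate 2 libraries 654 to 31915 (median 2750). Fragments of the 10 loci were found in 39 libraries, at 11.8 to 38.0 per 10000 in replicate 1 and 0 to 21.9 in replicate 2. The p-values from limma rest on the spread between these sorts. Those of the Cochran-Mantel-Haenszel test and the intervals on shares and odds ratios treat the fragments of a sort as independent, so they cover counting error only and not the spread between replicates.

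Sequences of regions with many positive fragments for their locus are given first, since later counts refer to them. A region is named by its locus and the distance of its centre from the start site, with a minus sign for upstream. Each line gives 250 bases of the mm10 (GRCm38) plus strand, 5′ to 3′, at the place where the positive fragments of the region lay deepest, and none of these windows overlapped an annotated exon. Capitals mark matches, on either strand, to the core letters of transcription factor families. The site of AP-1, a factor downstream of growth signals, was searched as TGACTCA. The site of the TEAD factors, which act with YAP, was searched as GGAATG, and that of SOX factors as ACAANGG. The site of RBPJ, the Notch pathway factor, was searched as TGGGAA. For RUNX factors, among them RUNX1 of emerging blood cells, the search used TGTGGT, and for GATA factors it used AGATAAG. For ETS factors, many of which act in endothelium, the search used AGGAAG, and for the E-box of basic helix-loop-helix factors it used CAGCTG, which reads the same on both strands. Matches were counted also where 2 motifs shared letters. The windows shown are the most positive region of 6 loci, and 2 further Sparc regions, +33.5 kb for its size and +14.1 kb for its run of SOX matches.
Col4a1 +52.7 kb (chr8:11259910-11260159): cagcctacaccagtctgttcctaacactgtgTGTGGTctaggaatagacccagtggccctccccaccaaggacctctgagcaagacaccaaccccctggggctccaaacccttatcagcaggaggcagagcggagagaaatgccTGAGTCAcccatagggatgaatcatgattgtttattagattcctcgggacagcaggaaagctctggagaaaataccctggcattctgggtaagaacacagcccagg
Lamc1 +130.5 kb (chr1:153202238-153202487): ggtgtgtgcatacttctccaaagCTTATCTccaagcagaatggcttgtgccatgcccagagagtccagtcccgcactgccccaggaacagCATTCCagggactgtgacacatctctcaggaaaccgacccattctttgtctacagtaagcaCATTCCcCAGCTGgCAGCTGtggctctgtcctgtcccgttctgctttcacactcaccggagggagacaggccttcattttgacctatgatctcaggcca
Lama4 +101.6 kb (chr10:39067029-39067278): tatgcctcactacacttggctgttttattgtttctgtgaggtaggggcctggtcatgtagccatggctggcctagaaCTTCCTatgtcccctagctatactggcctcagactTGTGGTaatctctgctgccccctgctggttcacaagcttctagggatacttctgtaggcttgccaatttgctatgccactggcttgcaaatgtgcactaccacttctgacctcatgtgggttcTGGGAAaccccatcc
Hspg2 +26.4 kb (chr4:137495124-137495373): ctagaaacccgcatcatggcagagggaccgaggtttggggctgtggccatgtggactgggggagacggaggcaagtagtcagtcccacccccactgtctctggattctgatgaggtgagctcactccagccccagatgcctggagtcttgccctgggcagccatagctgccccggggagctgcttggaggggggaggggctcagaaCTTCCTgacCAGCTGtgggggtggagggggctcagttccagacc
Col18a1 -16.6 kb (chr10:77182921-77183170): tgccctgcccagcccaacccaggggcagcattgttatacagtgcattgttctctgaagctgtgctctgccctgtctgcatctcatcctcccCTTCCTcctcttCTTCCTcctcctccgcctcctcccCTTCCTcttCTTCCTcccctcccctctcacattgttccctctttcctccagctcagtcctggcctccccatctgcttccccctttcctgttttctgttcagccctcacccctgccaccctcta
Sparc -8.4 kb (chr11:55428281-55428530): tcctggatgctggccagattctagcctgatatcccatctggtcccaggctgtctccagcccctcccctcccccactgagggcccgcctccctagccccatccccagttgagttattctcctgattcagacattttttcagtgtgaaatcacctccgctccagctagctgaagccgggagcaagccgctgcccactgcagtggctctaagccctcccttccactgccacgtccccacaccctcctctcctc
Sparc +33.5 kb (chr11:55386469-55386718): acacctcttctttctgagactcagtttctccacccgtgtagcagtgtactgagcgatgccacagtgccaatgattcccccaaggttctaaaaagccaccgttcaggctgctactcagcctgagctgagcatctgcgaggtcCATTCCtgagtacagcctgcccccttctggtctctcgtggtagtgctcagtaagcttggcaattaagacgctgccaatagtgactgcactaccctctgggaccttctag
Sparc +14.1 kb (chr11:55405704-55405953): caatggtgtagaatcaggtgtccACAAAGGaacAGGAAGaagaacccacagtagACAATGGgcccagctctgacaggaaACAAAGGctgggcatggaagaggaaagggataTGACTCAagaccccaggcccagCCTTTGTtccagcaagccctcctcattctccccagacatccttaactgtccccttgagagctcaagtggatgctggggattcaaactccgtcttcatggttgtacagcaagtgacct

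The windows differed in which of these letters they held. Sparc -8.4 kb, with 68 positive fragments, held none of the 8 motifs, and Sparc +33.5 kb, with 58, held a single TEAD match. Sparc +14.1 kb held 4 SOX matches, 1 AP-1 match and 1 ETS match. Col4a1 +52.7 kb held an AP-1 and a RUNX match. Col18a1 -16.6 kb held 4 ETS matches, all in its pyrimidine-rich stretch. Lamc1 +130.5 kb held 2 TEAD, 1 GATA and 2 E-box matches. Over the 20 member regions with at least 20 entries, AP-1 letters were in 20.0% of windows against 14.4% of the windows of all 5742 such regions. TEAD letters were in 20.0% against 15.8%, SOX in 20.0% against 15.6%, RBPJ in 25.0% against 24.1% and RUNX in 20.0% against 19.4%. ETS letters were in 50.0% against 46.7%, E-box letters in 20.0% against 23.3% and GATA letters in 5.00% against 7.40%. These shares are descriptions over 20 windows, in which 1 window is 5.00%, and a match is not evidence of a bound factor.

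Over all 10 sorts the loci held 921 positive and 230 negative fragments. That is 80.0% positive (Wilson 95% interval 77.6 to 82.2), beside 76.8% (76.6 to 76.9) for all fragments of the screen. In replicate 1 the members were 81.6% positive against 78.2% of all, and in replicate 2 69.5% against 71.1%, so the side of the difference turned. The members were above the whole screen in 5 of 5 sorts of replicate 1 and below it in 4 of 5 sorts of replicate 2. Some of these sorts were near ties. The shares were 73.0% against 72.8% at ES and 82.4% against 82.2% at HB of replicate 1. At ES of replicate 2 they were 76.19% against 76.22%. HE2 of replicate 2 held only 2 positive and 5 negative member fragments. Replicate 1 supplied 86.3% of the members' entries, and 78.8% of all entries. The gates held 30.1% Low, 38.2% Medium and 31.7% High entries among the members' positive entries, against 30.5%, 37.2% and 32.4% over all. The loci were unequal in size. Per 10 kb of window, Sparc held 35.3 entries, which placed it above 99.1% of all 26180 gene loci, and Fn1 held 0.764, above 46.5%. The median over all gene loci was 0.979. Hspg2 held 16.9, Col4a1 13.1, Col18a1 10.4 and Col4a2 8.69, while Nid1 held 4.33, Lamc1 2.99, Lamb1 1.57 and Lama4 1.13. Entries per 10 kb count cloned and recovered fragments in any gate, so they describe what entered the screen as well as what was active.

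The collagen IV genes stand head to head on chromosome 8, with start sites 21 bp apart. Col4a1 runs from 11198423 to 11312826 on the minus strand, and Col4a2 from 11312805 to 11449287 on the plus strand. Their windows shared 32 entries in 8 regions, which the tests of loci counted at both genes. Col4a1 held 167 positive and 43 negative fragments, or 79.5% positive (interval 73.6 to 84.4). In replicate 1 its positive fragments per 10000 positive fragments of the sort ran, in the order ES, HB, HE1, HE2 and HP, through 7.22, 5.13, 6.77, 5.70 and 2.77. In replicate 2 they were 1.11, 0.819, 1.44, 0 and 1.92 in the same order. Every replicate 1 sort was above every replicate 2 sort. Col4a2 held 121 positive and 35 negative fragments, or 77.6% positive (interval 70.4 to 83.4). Its positive fragments per 10000 were 1.80, 2.82, 4.71, 4.38 and 3.78 from ES to HP in replicate 1, and 3.33, 2.46, 1.72, 0 and 0 in replicate 2. The 2 replicates of Col4a2 overlapped, and the HE1 and HE2 sorts were the highest of replicate 1 but not of replicate 2.

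The laminin loci were the thinnest apart from Fn1. Lamc1, the gamma chain of most laminins, held 38 positive and 9 negative fragments. Of the positive fragments 97.4% came from HE1 and HE2, beside 68.2% over the 10 loci and 61.1% over the screen. In replicate 1 there were 17 positive fragments at HE1, 20 at HE2, 1 at ES and 0 at HB and HP. There were 0 in all 5 sorts of replicate 2. From ES to HP, per 10000, these were 0.361, 0, 1.67, 2.92 and 0 in replicate 1. The pattern was therefore seen in replicate 1 alone. Over its 5 stages replicate 1 gave 1.37 positive fragments per 10000, while the 0 of replicate 2 allows up to 0.464 (3 counts of its 64717 positive fragments). Lama4, the alpha chain of endothelial laminins, held 19 positive and 3 negative fragments, spread over all 5 stages at 0.257 to 1.08 per 10000 in replicate 1. Lamb1, a beta chain, held 14 positive and 3 negative fragments, of which 8 positive were at HE1 in replicate 1 and 3 at HE1 in replicate 2. At 5 of the 10 sorts Lamb1 had no positive fragment.

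Of the genes that link the networks, Hspg2 was the richer. It held 190 positive and 55 negative fragments, or 77.6% positive (interval 71.9 to 82.3). Its positive fragments per 10000 were 5.41, 3.59, 7.55, 7.45 and 3.53 from ES to HP in replicate 1. In replicate 2 they were 4.43, 4.10, 2.59, 2.88 and 0. HE1 and HE2 were the highest sorts of replicate 1, and ES and HB those of replicate 2. Nid1 held 40 positive and 11 negative fragments. It was at 0.722, 0.513, 0.392, 0.146 and 1.51 positive fragments per 10000 in replicate 1, and at 1.11, 1.64, 6.03, 0 and 1.92 in replicate 2. The 6.03 of HE1 in replicate 2 was the highest Nid1 value, and 20 of its 21 fragments lay in the single region Nid1 +43.2 kb.

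Col18a1 held 134 positive and 31 negative fragments, or 81.2% positive (interval 74.6 to 86.4), and 78.4% of its positive fragments came from HE1 and HE2. Its positive fragments per 10000 were 0.722, 1.80, 5.89, 4.38 and 1.76 from ES to HP in replicate 1, and 4.43, 5.73, 4.02, 2.88 and 3.84 in replicate 2. The HE1 and HE2 sorts were above the other stages in replicate 1 and were not in replicate 2. Sparc held most positive fragments of the 10 loci, 215, with 46 negative ones, or 82.4% positive (interval 77.3 to 86.5). In replicate 1 its positive fragments per 10000 were 8.30, 8.47, 7.16, 6.87 and 8.82 from ES to HP, the flattest course of the 5 loci with over 100 positive fragments. In replicate 2 there were 2 positive fragments at ES, 2 at HE1 and none at HB, HE2 or HP. Summed over stages Sparc gave 7.63 positive fragments per 10000 in replicate 1 and 0.618 in replicate 2. Fn1 held 7 positive and 2 negative fragments in 6 regions, with positive fragments at 2 ES, 4 HB and 1 HE1 over both replicates.

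**Figure D1:**
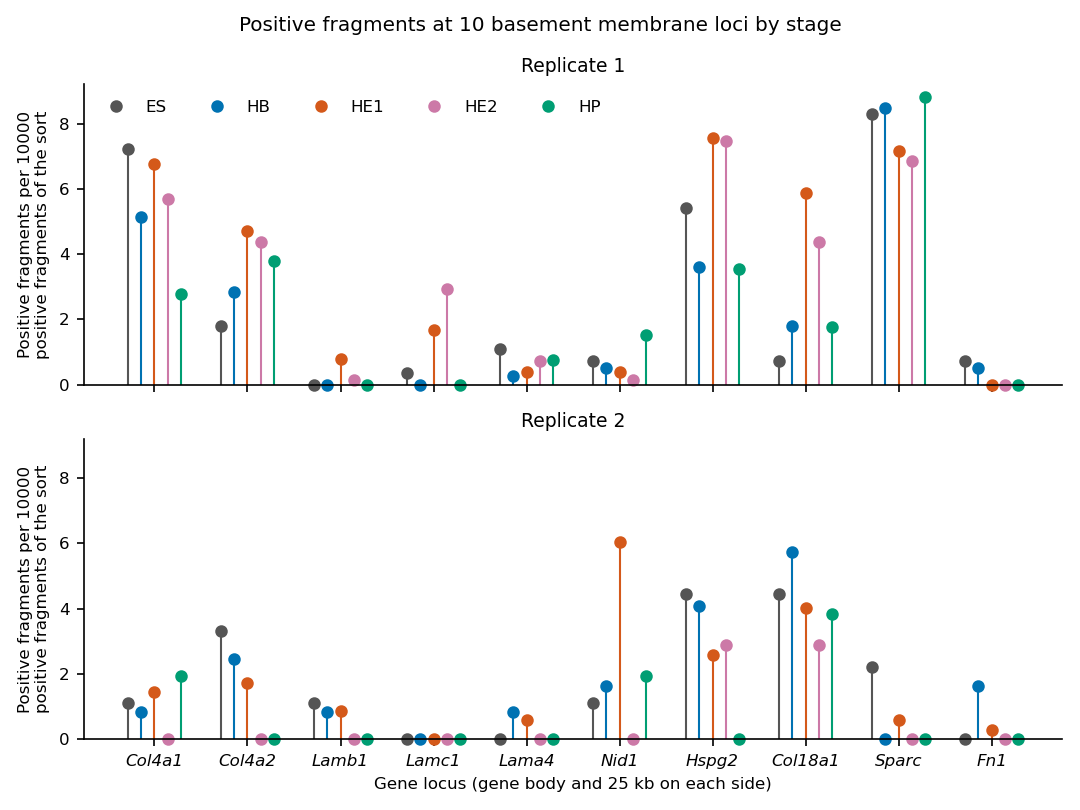
Positive fragments of each locus per 10000 positive fragments of the sort (y axis) for the 10 loci (x axis), with 1 point per stage in replicate 1 (upper panel) and replicate 2 (lower panel). Each point is a single sort and has no error bar. Sparc lies between 6.87 and 8.82 in all stages of replicate 1 and at or below 2.22 in replicate 2, and Lamc1 is above 1 only at HE1 and HE2 of replicate 1.

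The differences between replicates went with other properties of the replicates. Positive member fragments had a median length of 163.5 bp in replicate 1 and 283 bp in replicate 2, against 159 and 273 bp for all positive fragments. Their mean GC content was 54.9% and 52.0%, against 55.7% and 49.5%. The part of length, GC content and depth in the levels of single loci was not tested.

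Whether fragments of a locus were positive more often than others of the same sort was asked with the Cochran-Mantel-Haenszel test, stratified by the 10 sorts. The test needs at least 20 fragments, which 8 of the 10 loci had, all but Lamb1 and Fn1. None of the 8 was called at an adjusted p under 0.05, where 0.0756% of 9259 gene loci were called, and none had an unadjusted p under 0.05, where 3.32% did. With limma in place of that test 0 gene loci of the screen were called. Observed over expected positive fragments lay between 0.971 (Nid1) and 1.08 (Col18a1), with a median of 1.03 against 1.00 over all loci tested. Col18a1 had 134 positive fragments where 124 were expected, an odds ratio of 1.51 (95% interval 0.987 to 2.31). Sparc had 215 where 203 were expected, an odds ratio of 1.34 (0.969 to 1.86). For Hspg2 the odds ratio was 1.07 (0.777 to 1.47), for Col4a1 1.18 (0.837 to 1.67) and for Col4a2 1.05 (0.704 to 1.57). The intervals of the smaller loci were wider, at 0.552 to 2.59 for Lamc1, 0.399 to 1.76 for Nid1 and 0.452 to 5.44 for Lama4. All 8 adjusted p-values were 1. Such p-values do not show that the loci equal the rest of the screen.

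Within positive fragments, the High gate was set against the Low gate in the same way. Of the 6 loci with enough fragments, none was called at an adjusted p under 0.05, with 0.017% called among 5875 loci, and none had an unadjusted p under 0.05, where 4.99% did. High fragments numbered 85 at Sparc (90.0 expected), 58 at Hspg2 (65.5), 50 at Col4a1 (56.5), 49 at Col4a2 (49.1) and 39 at Col18a1 (41.8). Nid1 was the member above expectation, with 9 High fragments where 5.43 were expected and an odds ratio of 3.51 (95% interval 1.11 to 11.1, Cochran-Mantel-Haenszel test with continuity correction, unadjusted p = 0.0685, adjusted p = 1). That direction depended on the stratification: observed over expected was 1.66 within sorts and 0.594 with no replicate block. The observed over expected median of the 6 loci was 0.939, against 1.00 over all loci tested.

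The members' entries were concentrated in few regions. Of the 121 regions 78 were centred in introns, 36 between genes and 7 in exons, and 50 held a single entry (41.3%, against 55.0% of all regions). Regions that ran past the edge of a window kept all their fragments, 9 entries in all. There were 20 regions with at least 20 entries, of which Sparc and Hspg2 had 5 each. The region with most positive fragments at each locus and the 10 regions with most entries made up 16 regions, which held 661 entries, 55.0% of those in the 121 regions. At Lama4 a single region held 86.4% of the entries and at Lamc1 61.2%, while the largest Col4a2 region held 20.3%. Positive fragments were present in 109 of the 121 regions, and 12 regions held negative fragments alone. Over the screen these numbers were 63070 and 11990 of 75060 regions.

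Sparc -8.4 kb, an intergenic region upstream of the gene, was the largest, with 78 entries (chr11:55427871-55429034). In replicate 1 its positive fragments from ES to HP numbered 10, 9, 23, 16 and 10, with 10 negative ones and no entry in replicate 2. Sparc +33.5 kb, downstream of the gene, had 7, 9, 18, 10 and 14 positive fragments in the same order and 8 negative ones, again with none in replicate 2. Of its entries in the positive gates, 29 were High, 18 Medium and 15 Low. Sparc +1.9 kb, in an intron, had 5, 9, 14, 5 and 4 positive fragments in replicate 1 and 2 at HE1 in replicate 2, with 13 negative ones. These 3 regions were positive at all 5 stages. Sparc +14.1 kb, also in an intron, was different in that it had no positive or negative fragment at ES or HB of replicate 1. It had 15 positive fragments at HE1, 13 at HE2 and 3 at HP in that replicate, and 1 at ES in replicate 2.

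The 3 largest Hspg2 regions lay in introns of the gene. Hspg2 +26.4 kb had 4, 5, 12, 11 and 7 positive fragments from ES to HP in replicate 1 and 1 at HE1 in replicate 2. Its 10 negative fragments were 9 at HE1 and 1 at HP of replicate 1. Hspg2 +20.5 kb had 4, 7, 10, 12 and 6 positive fragments in replicate 1 and 1 at HE1 in replicate 2, with 5 negative ones in 5 different sorts. Hspg2 +2.1 kb had 3 at ES, 16 at HE1 and 12 at HE2 in replicate 1, and none at HB or HP. Its replicate 2 held 1 at ES and 1 at HE1.

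Col4a1 +52.7 kb lay in a Col4a1 intron and had 11, 9, 22, 9 and 1 positive fragments from ES to HP in replicate 1 and none in replicate 2. Col4a1 +124.9 kb, downstream of the gene, had 1, 2, 7, 4 and 5 in replicate 1 and 2 at HE1 in replicate 2. Col4a2 +27.7 kb, in a Col4a2 intron, had 11 at HE1, 8 at HE2 and 1 at HP in replicate 1, with 1 at ES and 1 at HE1 in replicate 2. Lamc1 +130.5 kb lay downstream of Lamc1, between genes. It had 11 positive fragments at HE1 and 14 at HE2 of replicate 1 and no other. Col18a1 -16.6 kb, upstream of its gene, had 31 at HE1, 20 at HE2 and 5 at HP of replicate 1. It had neither a positive nor a negative fragment at ES or HB. The study's methods include a filter on open-chromatin peaks of the matching stage, and its part in such missing stages was not tested. Lama4 +101.6 kb was positive at all 5 stages of replicate 1 with 3, 1, 4, 5 and 3 fragments, and Lamb1 -3.1 kb had 7 at HE1 and 1 at HE2. Fn1 +69.6 kb had 2, both at HB.

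Nid1 +43.2 kb was the named region with fragments in replicate 2 alone. It had 27 entries, of which 20 were in the Low gate of HE1. The fragments had a median length of 407 bp, and fragments with both ends within 5 bp counted once left 17. Fragments that differ by a few bases can be copies of a single molecule, since the inserts were amplified without molecular identifiers. Over whole loci the same step left 44 of 54 entries at Nid1, 154 of 171 at Col18a1, 259 of 268 at Sparc and 246 of 257 at Hspg2, and 1132 of 1193 over the 10 loci.

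**Figure D2:**
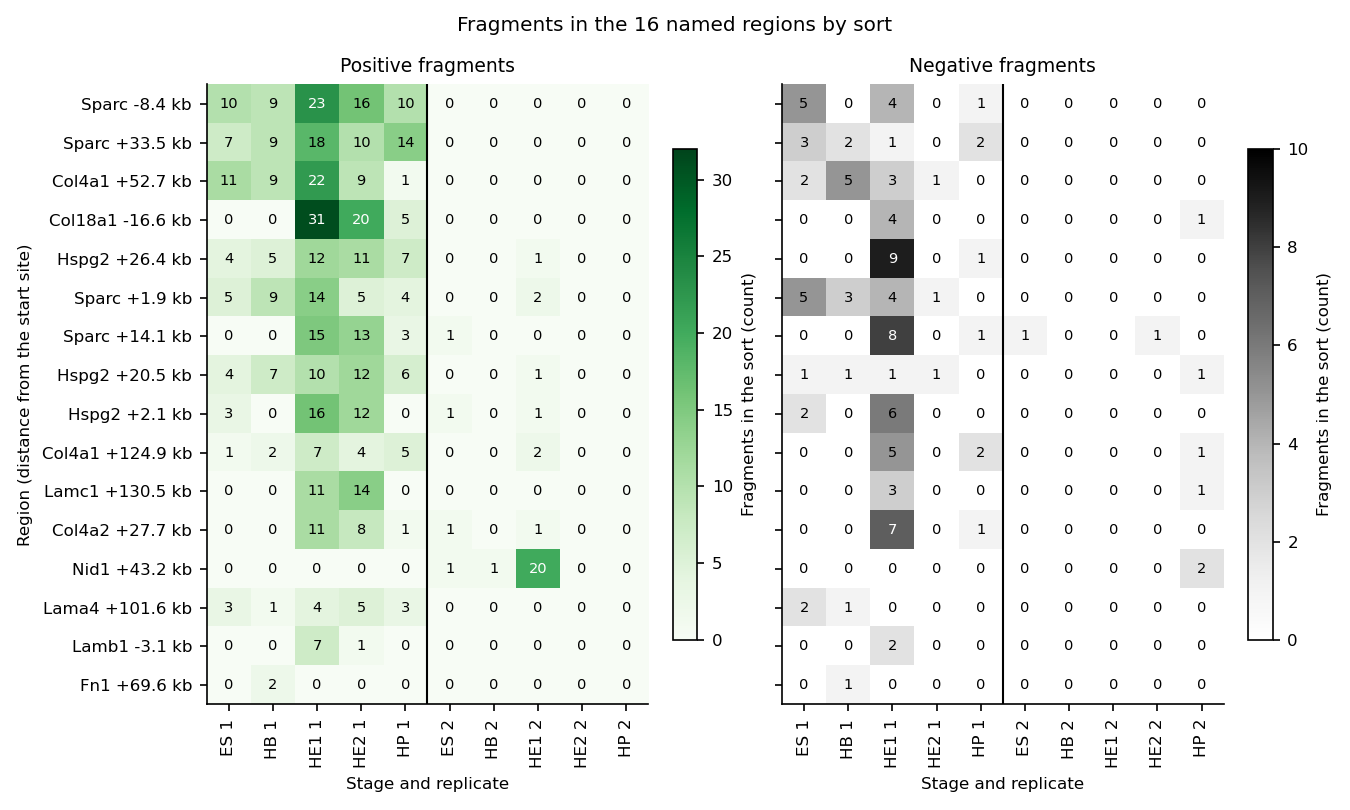
Positive (left) and negative (right) fragments of the 16 named regions (rows) by stage and replicate (columns, replicate 1 left of the line). The colour and the number in each cell are the count in that sort. Fragments lie mostly in replicate 1, with the 20 of Nid1 +43.2 kb at HE1 in replicate 2 as the highest replicate 2 count.

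**Figure D3:**
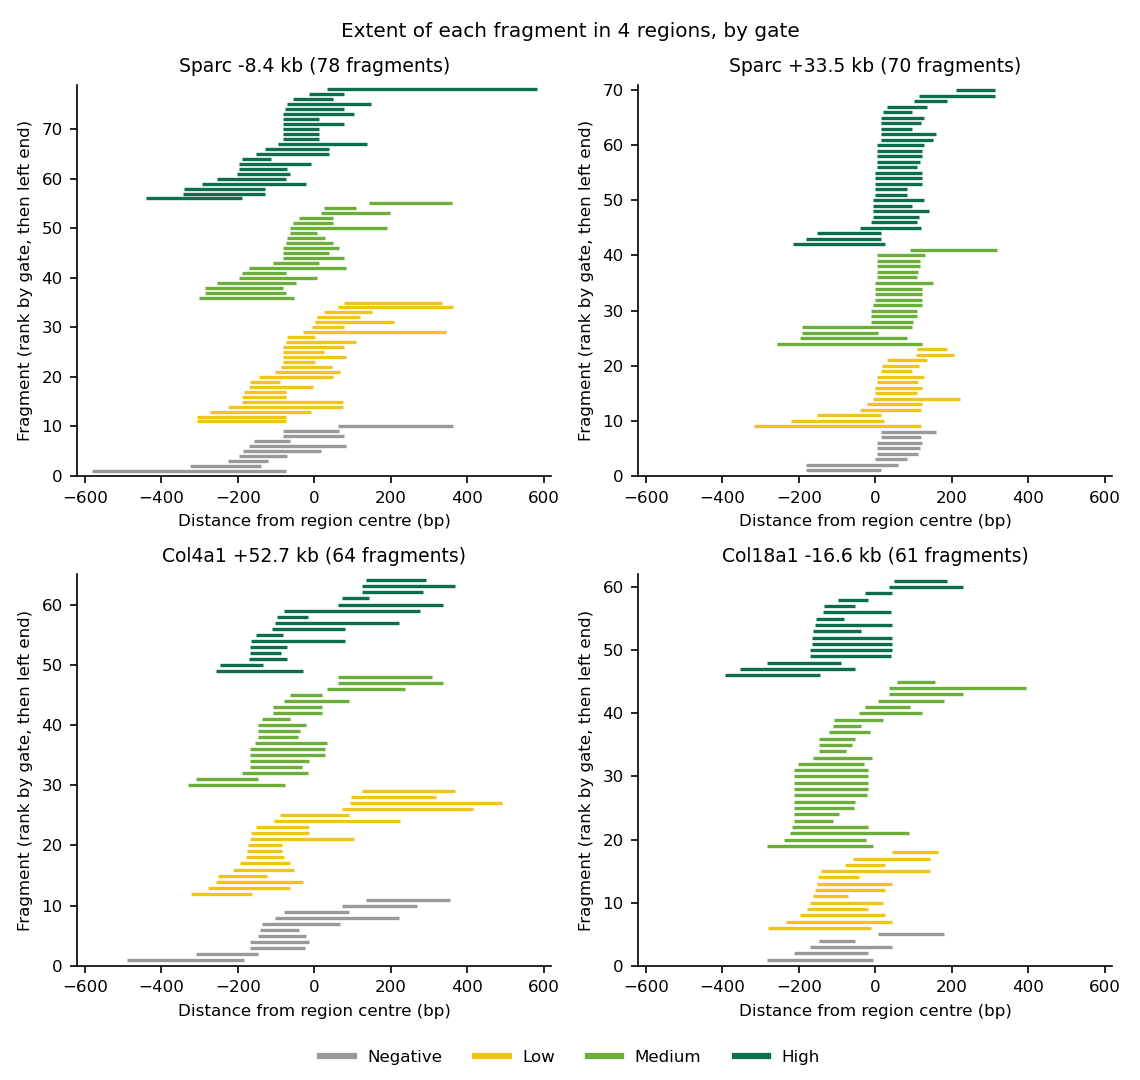
Extent of every fragment in the 4 regions with most entries, as distance from the region centre in bp (x axis), ordered by gate and then by left end (y axis). Negative fragments are grey, Low yellow, Medium green and High dark green. At Sparc +33.5 kb most fragments of each gate start near the centre and end to its right, and the negative fragments overlap the positive ones.

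The median centres of positive and negative fragments were equal in some regions and apart in others, over few negative fragments. At Sparc +33.5 kb the centres of positive and of negative fragments had the same median, 59.5 bp from the region centre. At Nid1 +43.2 kb both medians were 77 bp, with 2 negative fragments. At Sparc -8.4 kb the medians were -34.5 bp for positive and -98 bp for negative fragments, and at Sparc +1.9 kb -24 and -91 bp. At Hspg2 +20.5 kb they were -193 and -65 bp, with 5 negative fragments. At Lamb1 -3.1 kb they were -102.5 and -10 bp, with 2 negative fragments. Each of these 2 was also in the Medium gate of its sort, and they lay on different sides of the region centre. Sharing with a positive gate of the same sort was not particular to Lamb1 -3.1 kb. Among others, it held for every negative fragment of HE1 in replicate 1 at Col18a1 -16.6 kb, Hspg2 +2.1 kb and Sparc +1.9 kb. The same was so at Lamc1 +130.5 kb, and at Sparc +14.1 kb it held for some of them.

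The test of positive against negative fragments was repeated for single regions. Of the 18 member regions with at least 20 fragments over the sorts, none was called at an adjusted p under 0.05, with 0.181% called among 5530 regions. Observed over expected positive fragments were above 1 in 13 of the 18, with a median of 1.07 against 0.999 over all regions tested. Col18a1 -16.6 kb was the member region with an unadjusted p under 0.05, which 3.45% of all regions had. Its 56 positive fragments compared with 47.1 expected, an odds ratio of 3.87 (95% interval 1.44 to 10.4, Cochran-Mantel-Haenszel test, unadjusted p = 0.00793, adjusted p = 1). Of the 61 entries of Col18a1 -16.6 kb 60 came from replicate 1, so this value has no replicate check. Its 5 negative fragments were 4 at HE1 of replicate 1 and 1 at HP of replicate 2. Each of the 4 was also in the Medium or High gate of its sort, so it counted in both classes. Fragments with both ends within 5 bp counted once left 54. Sparc -8.4 kb had 68 positive fragments where 60.8 were expected and Sparc +33.5 kb 58 where 51.9 were expected, with odds ratios of 1.98 and 1.98. The lowest ratio was that of Col4a1 +124.9 kb, with 21 observed and 22.4 expected.

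**Figure D4:**
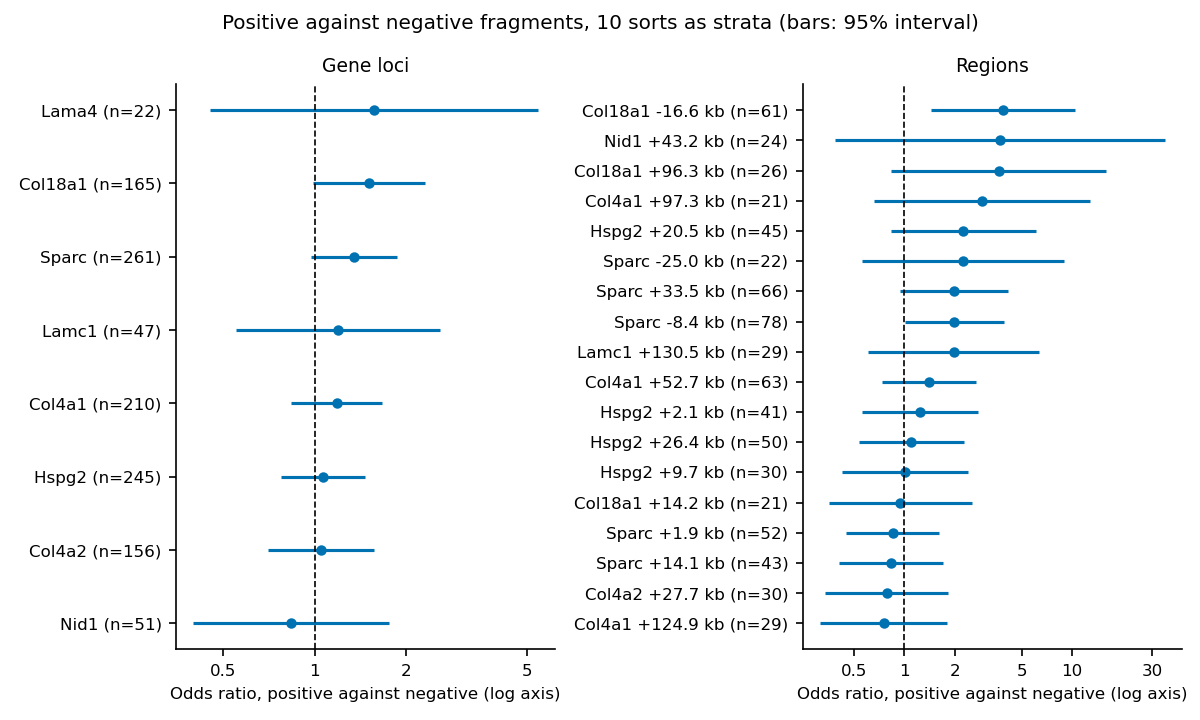
Odds ratio of being positive against negative, stratified over 10 sorts (x axis, log scale), for 8 loci (left) and 18 regions (right), with n fragments in brackets. Points are estimates and bars 95% intervals. The interval of Col18a1 -16.6 kb runs from 1.44 to 10.4, and no locus or region passed an adjusted p of 0.05.

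Since basement membrane genes are active in endothelium, the HE1 and HE2 sorts were compared with ES, HB and HP, on log2 of positive fragments per 10000 plus 1, with limma and the replicate as a block. Of the 7 loci with at least 20 positive fragments none was called, as was 0% of 7954 loci. 1 of the 7, Lamc1, had an unadjusted p under 0.05, which 4.85% of loci had. Of its 38 positive fragments 37 were from HE1 and HE2, so it reached the minimum of 20 only through the stages in which it was high, and its difference is given as a description. The mean was 0.85 at HE1 and HE2 and 0.07 at the other stages. Both HE1 and HE2 of replicate 1 were above the other sorts of Lamc1, and replicate 2 added 0 at every stage. Without replicate 1 no positive Lamc1 fragment was left. Hspg2 (0.52, 95% interval -0.31 to 1.35) and Col18a1 (0.51, -0.26 to 1.27) had estimates above 0. For Hspg2 the estimate was 0.02 with the gene body alone, and for Col18a1 it was -0.35 without replicate 1 and 1.36 without replicate 2. Col4a2 was at -0.00022 (-0.89 to 0.89), Col4a1 at -0.10 (-0.87 to 0.68), Sparc at -0.24 (-1.01 to 0.53) and Nid1 at -0.25 (-1.11 to 0.61). The median of the 7 was -0.00022, beside -0.03 over all loci tested. In the moderated F-test over the 5 stages, again none of the 7 was called, as was 0% of all loci, and none had an unadjusted p under 0.05, where 3.97% of loci did.

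**Figure D5:**
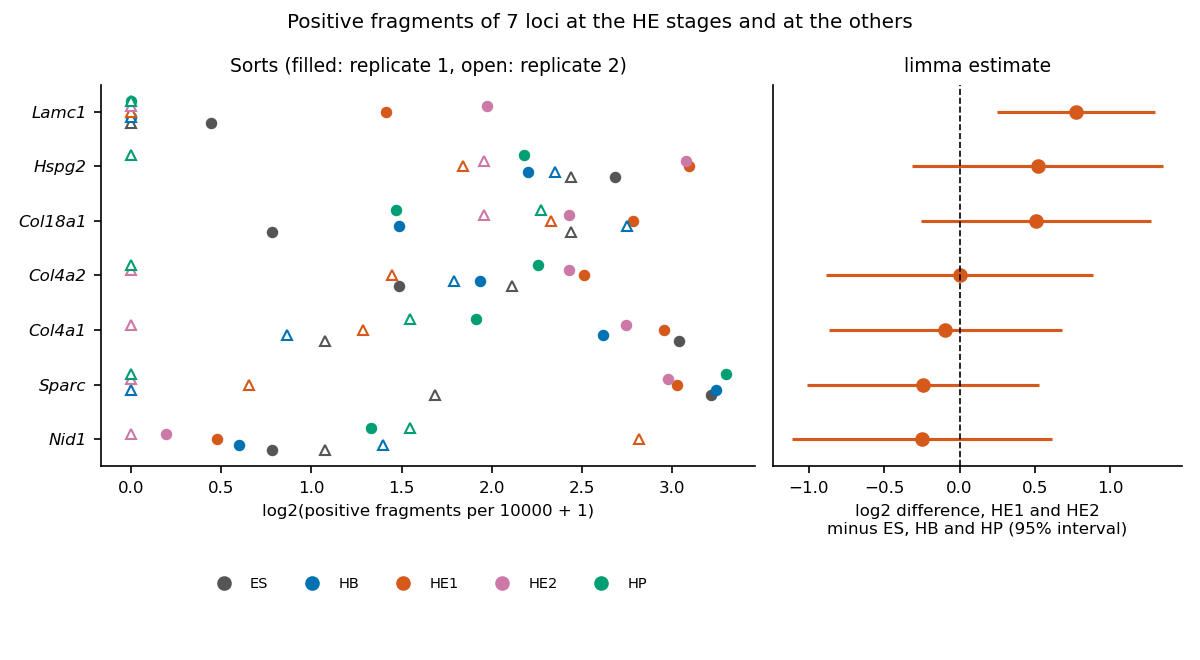
Left, log2 of positive fragments per 10000 plus 1 (x axis) for 7 loci (y axis), with 1 point per sort coloured by stage, filled for replicate 1 and open for replicate 2. Right, the limma difference of HE1 and HE2 minus ES, HB and HP on that scale with its 95% interval. No locus passed an adjusted p of 0.05, and Lamc1 reached the minimum of 20 fragments only through HE1 and HE2, so its interval is a description.

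Regions of the 10 loci were read again for how widely they were positive. Of the 109 regions with a positive fragment 13 were positive at all 5 stages, and 4 of these were at Sparc. Over the screen 4664 of 63070 regions with a positive fragment were positive at all 5 stages. At a single stage 58 were positive, 53.2% against 61.6% of all regions with a positive fragment. From ES to HP the regions with a positive fragment numbered 38, 41, 70, 43 and 32 of the 109. Over the screen they numbered 17351, 22114, 39786, 20141 and 17103 of the 63070. HE1 held 136752 of the 341428 positive fragments of the screen, and the part of depth in these counts was not tested. In both replicates 12 regions were positive, 11.0% against 8.14% of all. They were 4 at Hspg2, 3 at Col4a2, 2 at Col4a1, 2 at Sparc and 1 at Col18a1. These shares are not matched for size, since fewer member regions held a single entry (41.3% against 55.0%). Among regions with at least 20 entries, 10 of the 20 at the 10 loci were positive at all 5 stages, and 3329 of 5742 over the screen. Positive in both replicates were 45.0% of these member regions and 43.2% of all of that size.

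Identical fragments recurred between libraries about as often as elsewhere. Of the 931 distinct fragments 178 were in several libraries (19.1%, against 19.0% of all), and 9 were in both replicates (0.967% against 0.956%). Both a positive gate and a Negative gate held 120 of them (12.9% against 12.1%), and 99 did so within 1 sort. The most widely shared was an 82 bp fragment at Col4a2 +106.9 kb (chr8:11419811-11419892), in an intron of Col4a2. It was in 11 libraries, including the High gate of ES in both replicates and the Negative gates of ES and HE1 in replicate 1. Next was a 133 bp fragment at Col18a1 +35.8 kb (chr10:77130706-77130838), in an intron of Col18a1. It was in 9 libraries, all of replicate 2, among them the Negative gate at all 5 stages. At Sparc +33.5 kb a fragment of 123 bp (chr11:55386581-55386703) was in 7 libraries of replicate 1, all of them positive.

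By position, 65.8% of the distinct fragments were centred in introns, 33.2% between genes and 0.967% (9 fragments) in exons. Over the screen the shares were 44.2%, 49.0% and 6.72%, but the windows were drawn around gene bodies, so a larger intron share follows from the rule. No member fragment was centred within 1500 bp of a start site. At Hspg2 85.8% of the positive fragments were in introns, at Col4a1 85.6% and at Col4a2 86.8%, whereas at Sparc 66.5% lay between genes. Median length was 182 bp against 180 bp over the screen, and mean GC content 54.5% against 54.4%. Within sorts, positive member fragments were shorter than negative ones in 6 of the 10 sorts.

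The other genes of the pathway were 47 components, receptors and enzymes of matrix, listed with earlier results of these data known. In the test of positive against negative fragments, where 3.32% of all loci had an unadjusted p under 0.05, 28 had enough fragments. Of these 28, 0 were called and 1 was under 0.05 before adjustment. That was Serpinh1, the collagen chaperone, with 185 positive fragments where 171 were expected (odds ratio 1.54, adjusted p = 1 in the Cochran-Mantel-Haenszel test). P4ha2, a collagen prolyl hydroxylase, had 146 where 155 were expected, and Col15a1, a collagen related to Col18a1, had 14 where 17.0 were expected. Of 19 genes tested for High against Low fragments 0 were called. The lowest p-values there were those of the integrin gene Itgb3 (41 High, 32.8 expected), the fibulin gene Fbln2 (46 and 55.5) and the integrin gene Itga1 (15 and 19.6). In the comparison of HE1 and HE2 with other stages 0 of 23 were called, while 4 passed 0.05 before adjustment, beside 4.85% of all loci. The lowest 3 were the integrin genes Itgav, with a log2 difference of 0.70 (SE 0.23), and Itga1, with 1.06 (SE 0.38), and the laminin gene Lama5, with -1.05 (SE 0.41), each at an adjusted p of 0.964 in limma. Itgav had 29 positive fragments, with a mean of 0.75 at HE1 and HE2 and 0.05 at the other stages. Like Lamc1, Itgav reached the minimum of 20 only through the stages in which it was high, so its difference is a description. The 8 receptors tested, Itgav among them, had a median difference of 0.61, the 7 components -0.25 and the 8 enzymes and inhibitors -0.06, beside -0.03 over all loci. The receptor median rests in part on Itgav, so it too is a description, and these medians were not taken by replicate. Over the 5 stages 0 of 23 were called, and Itga1, Itgav and Plod1, a collagen lysyl hydroxylase, had the lowest p-values. The limit on Itgav holds there too.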

How the data were processed

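The deposited lists give other values than expression: each of the 40 libraries is a list of coordinates of unique fragments, with no read count. Per the methods and labels, the authors amplified inserts by PCR without molecular identifiers, used Trim Galore for trimming and bowtie2 for alignment to mm10 (inserts up to 600 bp) and kept proper pairs of mapping quality over 40. They took the span of a pair as a fragment and removed duplicates. With bedtools they removed background-library fragments and kept those in open chromatin and in an ATAC peak of the matching stage. HOMER gave promoter and distal classes. The stage filter, where applied, drops fragments whose site lacks a peak at that stage. Its part in stages without fragments, and in the levels by stage, was not tested. Tool versions for these libraries, and which filters reached the deposited lists, are not given in the sources used here. Near-identical fragments can be copies of 1 molecule, so counts may overstate independent molecules.

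Gene bodies were spans of curated RefSeq transcripts on GRCm38, the assembly of mm10. Regions were runs of overlapping fragments of all libraries, and 36 fragments on scaffolds or the Y chromosome had no sequence measures. Groups came from the titles. Loci and regions with at least 20 fragments were tested by the Cochran-Mantel-Haenszel test with continuity correction over 10 sorts. Stages were compared with limma 3.58.1 (R 4.3.3, trend) on log2(fragments per 10000 + 1). Both were adjusted by Benjamini-Hochberg over all loci or regions and were tested on simulated data. Other work used Python 3.11.15 with pandas 2.3.3 and scipy 1.17.1. The stages of a replicate come from 1 transfected pool, so replicate numbers pair the sorts, and the replicate differences of 2 stages correlated at 0.30 to 0.47 over 7954 loci (10 stage pairs). Alternatives changed the replicate block, fragment identity, minimum, window, pseudocount and test, and left out replicates or sorts.

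Named were all 10 loci, the region with most positive fragments at each, the 10 largest regions, any called region, and of 47 other pathway genes those called or the 3 of lowest p. Sparc +14.1 kb was also chosen for display of its sequence after its matches were seen. The loci, lists and tests were chosen with earlier results of these data known. The sequences of some regions are not reported here.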

Additional observations from a re-analysis of the deposited data

How the results depend on the processing

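No member locus or region was called under any alternative that was matched to members (0 in each test). In fixed bins of 500 bp, 12 of 4736 bins were called, and 0 of the 15 bins centred in the windows of the members, of which 1 had an unadjusted p under 0.05 in the Cochran-Mantel-Haenszel test. Since no member was called in the report, a change between called values of opposite sign could not arise for a member. The calls over all loci and regions moved. For positive against negative loci, 7 in the report, there were 0 with fragments within 5 bp counted once, 13 without fragments in both classes, 11 and 2 at minimums of 10 and 50, 0 with limma, 2 to 5 without a replicate and 3 to 11 without a sort. For regions, 10 in the report, the values were 23 with no replicate block, 0 with near fragments counted once, 17 and 5 at those minimums, 5 to 14 without a replicate and 5 to 17 without a sort. For High against Low, 1 in the report, they were 96 with no replicate block, 0 with near fragments counted once, 0 without fragments in both gates, 5 and 0 at those minimums, 3 in a 10 kb window, 0 to 4 without a replicate and 0 to 6 without a sort. For any stage difference, 0 in the report, leaving out a sort gave 0 to 13, with 13 without HE2 replicate 1, 8 without HP replicate 1 and 2 without HE2 replicate 2. The cause was not tested. HE1 and HE2 against the other stages stayed at 0. The replicate block, which pairs the sorts, changed no call of a member.

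The side of 1 on which a ratio lay held in all alternatives that could test it for Col4a1 and Lama4 in positive against negative loci, and for 13 of 18 regions. Col18a1 and Hspg2 held it for High against Low. Hspg2 stayed above 0 at HE1 and HE2 where it could be tested. Lamc1 did so too, on positive fragments of replicate 1 alone. Since 37 of its 38 positive fragments were from HE1 and HE2, that side was fixed in advance and is no measure of stability. In each of these tests the other members tested changed side in at least 1 alternative. Without replicate 1 the positive ratio of Col18a1 was 0.868 and that of Hspg2 0.889, and the HE difference of Col18a1 was -0.35. With no replicate block the High against Low ratio of Nid1 was 0.594, against 1.66. The F-test was not run without a whole replicate, which leaves no residual degrees of freedom. Depth limits the smaller loci: Lamb1 and Fn1 were below the minimum of 20 fragments, and the interval of Lama4 runs from 0.452 to 5.44.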
